A study of Mus musculus with 2 samples.

Results

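The cells described here are those LBPXRS cells in which Chac1 and Trib3 took the largest share of the RNA molecules counted. They were chosen by those counts: LBPXRS cells with at least 1000 detected genes and at most 10% mitochondrial UMIs were kept, the 10% with the highest Krt8+Krt18 share were dropped, and of the rest the 15% with the highest Chac1+Trib3 share were taken. The rule gave 365 cells of 2705 kept LBPXRS cells and of 4488 kept cells in both libraries, and they were compared with the 2070 other LBPXRS cells left after the keratin step. A UMI is a molecular tag that counts 1 captured RNA molecule. Levels are UMIs summed over a group of cells per 1000000 UMIs of that group (CPM).

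Both libraries came from R1 mouse embryonic stem cells kept for 72 hours in N2B27, a serum-free medium. In the LB library the medium held LIF and BMP4 and the cells grew on gelatin. In the LBPXRS library it held LIF, BMP4, the MEK inhibitor PD0325901, the tankyrase inhibitor Xav939, the NODAL and activin receptor inhibitor SB431542 and a resorcylic lactone, and the cells grew on fibronectin. Medium and substrate therefore cannot be told apart, and with 1 library per condition and cells chosen on their own counts there is no test and no p-value. Intervals in parentheses are exact 95% intervals for counting error only, and do not cover differences between cultures.

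When amino acids run short, haem is low or misfolded protein collects in the endoplasmic reticulum (ER), kinases phosphorylate the initiation factor eIF2alpha, which lowers protein synthesis in general and raises translation of the transcription factor ATF4. This is the integrated stress response. ATF4, often with a C/EBP partner such as CHOP (encoded by Ddit3), induces genes for amino acid synthesis and uptake, for tRNA charging and for feedback. Chac1, an enzyme that breaks down glutathione, and Trib3, a pseudokinase that restrains ATF4 and CHOP, are known targets of this pathway.

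The promoters of both rule genes are shown because the pathway acts through a short DNA element that can be looked for in them. They span 250 bases before to 50 after the gene start, from RefSeq on GRCm38.p6. That is chr2:119350992-119351291 on the plus strand for Chac1 and chr2:152344011-152344310 on the minus strand for Trib3. Capitals mark matches on either strand to TGATGNAA, the letters used here for the C/EBP-ATF response element, or to the looser TGNNGCAA, which was chosen after these promoters were read.
Chac1: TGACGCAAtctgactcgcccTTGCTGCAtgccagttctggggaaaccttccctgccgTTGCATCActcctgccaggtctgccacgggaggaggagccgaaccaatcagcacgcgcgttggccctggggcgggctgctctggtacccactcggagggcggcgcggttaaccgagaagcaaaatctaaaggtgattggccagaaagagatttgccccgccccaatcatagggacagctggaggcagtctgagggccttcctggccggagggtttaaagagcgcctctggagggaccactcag
Trib3: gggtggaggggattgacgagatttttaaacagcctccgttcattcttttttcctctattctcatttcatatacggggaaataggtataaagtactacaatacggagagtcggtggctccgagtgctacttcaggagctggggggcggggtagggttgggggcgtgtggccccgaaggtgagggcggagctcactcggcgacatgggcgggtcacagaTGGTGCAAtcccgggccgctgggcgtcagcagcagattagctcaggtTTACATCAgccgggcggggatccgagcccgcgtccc
Chac1 held TTGCATCA from base 58 and Trib3 held TTACATCA from base 265, each a match to TGATGNAA on the other strand. The looser letters were found in Chac1 from bases 1 and 21 and again at base 58, overlapping the first match, and in Trib3 from base 218. TGATGNAA stood in 3.97% of all 32851 RefSeq promoters of this length and TGNNGCAA in 11.4%.

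Among the 65 stress response genes listed for this work, 51 matched the promoter table, with 68 promoters. TGATGNAA stood in 17 of these 68 promoters, among them those of Asns, Atf3, Herpud1, Nupr1, Pck2 and Slc1a4. It stood in 5 of 9 matched promoters of tRNA synthetases known as ATF4 targets and in 0 of 5 of other tRNA synthetases. The ER stress element, searched on both strands as CCAAT followed after 9 bases by CCACG, stood in 9 of 19 matched ER chaperone promoters against 0.119% of all promoters, and in 0 of the 68. No match to TGATGNAA or TGNNGCAA was found in the window of Gpt2, Ddit3, Atf4, Mthfd2, Psph or Olig2, and Slc1a5 was not matched. In LBPXRS the median log2 ratio of chosen over other cells was 0.25 over 16 genes with it and 0.33 over 33 without it. In LB it was 0.50 over 17 with it and 0.39 over 33 without it.

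The 365 cells held 1 to 21 UMIs of Chac1 and Trib3 together, with a median of 5, while the other cells held 0 to 8 with a median of 1. The lowest cell inside stood at 200.216 CPM and the highest outside at 200.136 CPM. Of the chosen cells 185 lay within 1 UMI of that boundary, as did 300 of the other cells, and 885 other cells had a UMI of neither gene. The class is a range cut from a score per cell, and whether it is a cell type of its own was not tested. Trib3 was counted in 356 of the chosen cells and Chac1 in 268: 259 had both, 97 had Trib3 only and 9 had Chac1 only. The 9 were shallow, with a median of 3274 UMIs. Free RNA in droplets was not measured, since no cell type in the library is known to lack both genes.

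**Figure D1:**
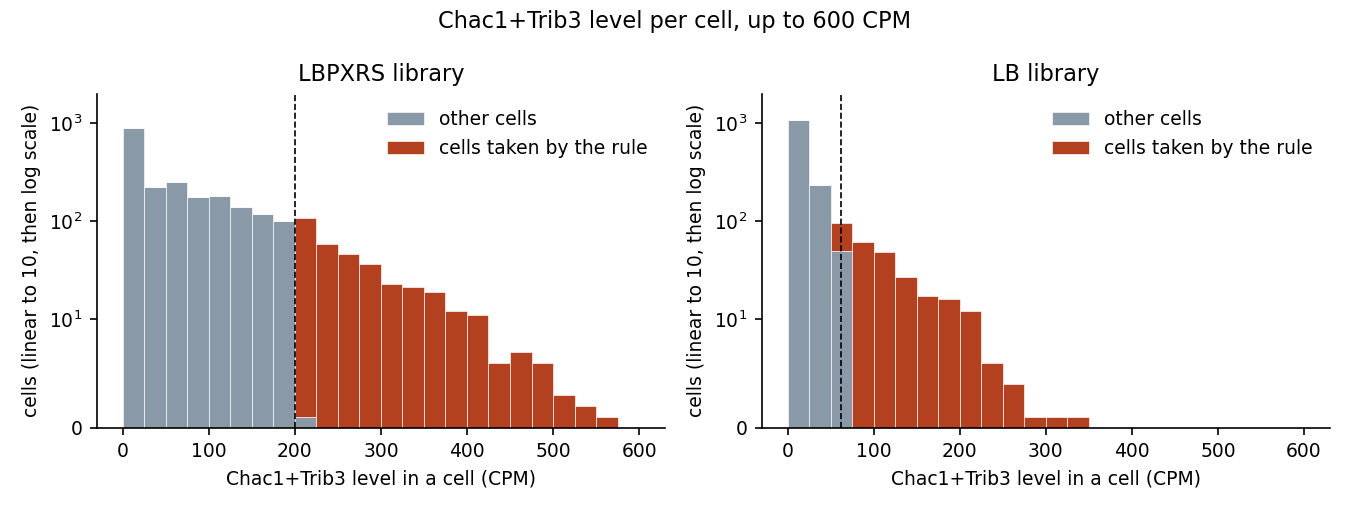
Number of cells (linear up to 10, then log scale) by Chac1+Trib3 level per cell in CPM, up to 600 CPM, in each library. Red cells were taken by the rule and the dashed line is the lowest of them. The levels run on without a gap across the line, at 200.216 CPM in LBPXRS and 61.7017 CPM in LB.

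As chosen, Chac1 stood at 81.3 CPM against 13.9 in the other cells and Trib3 at 203 against 46.7, together 4.70-fold (4.43 to 4.99). Since the choice used these UMIs, that ratio is a description. To read the genes apart from the choice, the UMIs of each cell were split at random into a pair of equal parts, cells were chosen on one part and read in the other. The ratio was then 2.08-fold (1.89 to 2.29), and 61.1% of the 365 cells were chosen again. Cells chosen on Trib3 alone had 2.55-fold more Chac1 (2.25 to 2.90), and cells chosen on Chac1 alone had 1.82-fold more Trib3 (1.68 to 1.97). Across the 2435 cells the Spearman correlation of Chac1 with Trib3 was 0.32. Both come from the same cells and share their depth.

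**Figure D2:**
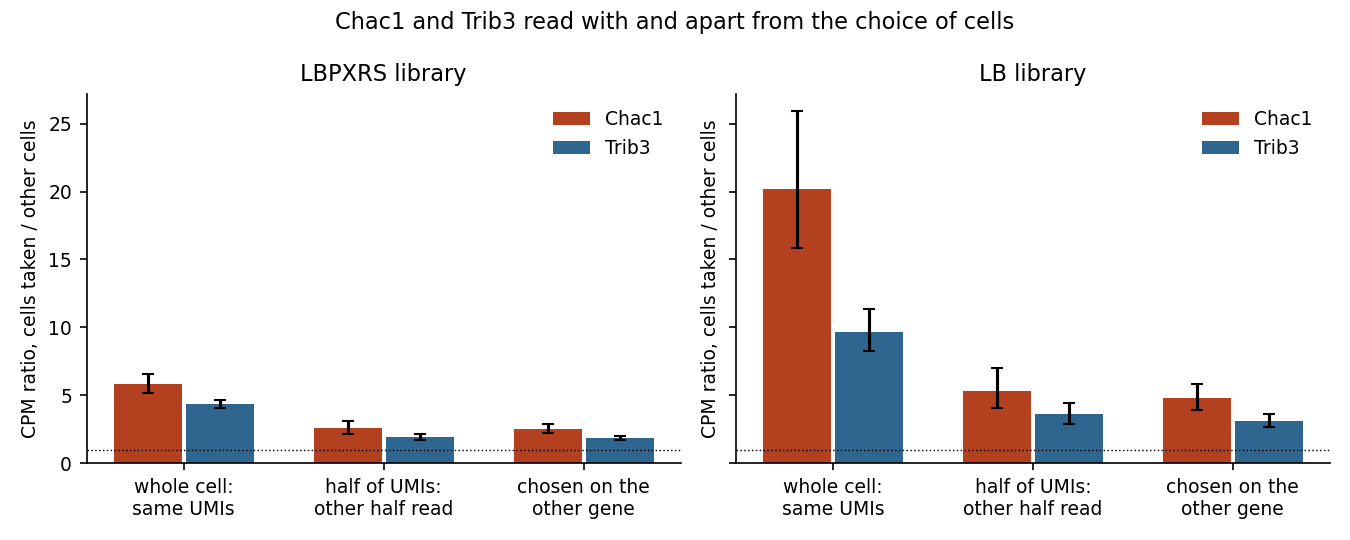
Ratio of CPM between the cells taken and the other cells for Chac1 and Trib3 in each library, with exact 95% counting intervals. Bars are for cells chosen and read on the same UMIs, chosen on one part of the UMIs and read in the other, and chosen on the other gene. In LBPXRS the ratios of Chac1 are 5.85, 2.56 and 2.55, and those of Trib3 4.35, 1.94 and 1.82.

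The chosen cells were slightly deeper than the others, with a median of 19961 against 19001.5 UMIs and 4020 against 3768 genes. Their median mitochondrial share was 2.42% against 2.57%, and ribosomal protein genes took a median of 35.9% against 38.0% of UMIs. Over the 2435 cells the Spearman correlation of the score with depth was 0.19. 1 chosen cell was marked as a doublet and 0 of the 365 barcodes also occurred among the kept LB cells, against 9 marked and 7 shared among the other cells. Among cells with 12000 to 30000 UMIs the stress response median was 0.29. The log2 ratios of Atf4 and Gata2 were 0.55 and -2.13 there, close to those of all depths below. With cells chosen after thinning to 5000 UMIs each, these values were 0.23, 0.46 and -1.51. The 42 higher and 63 lower calls below became 41 and 61 in the first setting and 12 and 34 in the second. Thinning leaves few rule UMIs per cell, with ties in the order of the file, so it changes more than depth. The part of depth was not tested. The part of the ribosomal share was not tested.

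Genes were called higher or lower by size alone, at 1.5-fold on log2((CPM + 1)/(CPM + 1)), which understates the change of low genes. Of 6978 genes with at least 10 CPM in either group, 42 were called higher (0.602% of them) and 63 lower (0.903%), leaving out the 4 rule genes. The median gene stood at 0.07, and scaling by TMM moved it to 0.01 and the calls to 23 higher and 80 lower. With at least 1 CPM, the minimum used for list members, 1.24% of 12398 genes were higher and 2.28% lower, with a median log2 ratio of 0.04.

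Stress response genes were higher together but by little. The 65 genes summed to 7156 CPM in the chosen cells against 5879 in the others, 1.22-fold (1.21 to 1.23). Of the 63 with at least 1 CPM, 58 were above 0 on the log2 scale, where 58.0% of all genes at that level were above 0. Their median was 0.28, and 8 were past 1.5-fold, all of them higher. Of the 8, Gpt2 and Slc1a5 stood above 20 CPM in the chosen cells. The other members past that size were Atf3, Stc2, Vldlr, Adm2, Slc6a9 and Slc7a11, the cystine carrier. Chosen at 5000 UMIs each, Stc2, Adm2 and Slc6a9 stood at 0.28, 0.56 and 0.56 on the log2 scale, under the size for a call.

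Of the transcription factors, Atf4 stood at 334 CPM against 227 (1.47-fold, 1.40 to 1.54). Its dimer partners Cebpb and Cebpg stood at 112 against 77.1 CPM and 52.5 against 36.1 CPM. Atf3, a further target that is also a factor, stood at 9.21 against 3.55 CPM, 2.59-fold (1.91 to 3.50), and its log2 ratio of 1.17 was 0.51 when cells were chosen at equal depth. Ddit3 differed little, with 134 CPM against 127 (1.06-fold, 0.99 to 1.13), and so did Nupr1, a stress-induced chromatin protein, with 496 against 453 CPM. Over the settings run their log2 ratios, 0.08 and 0.13, ranged from -0.03 (chosen on Chac1 alone) to 0.22 (on Trib3 alone) for Ddit3 and from -0.01 to 0.22 for Nupr1 under the same choices.

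Among enzymes of amino acid and one-carbon synthesis, 13 of 14 were above 0. Gpt2, a mitochondrial alanine transaminase, had 46.7 CPM against 24.1 (1.94-fold, 1.71 to 2.20), and it was past 1.5-fold under every setting run. It had been named as a marker of these cells from the same data, so that its ratio is no independent support. Mthfd2, of the mitochondrial folate cycle, stood at 259 against 181 CPM, and Psph, the last enzyme of serine synthesis, at 210 against 148 CPM. Asns, asparagine synthetase and a standard ATF4 target, stood at 320 against 283 CPM (1.13-fold, 1.08 to 1.18), and its log2 ratio of 0.18 ranged from -0.05 when cells were chosen on Chac1 alone to 0.24 with the mean of each cell's CPM.

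All 12 amino acid transporters were above 0, with a median log2 ratio of 0.28. Slc1a5, which carries glutamine and other neutral amino acids, stood at 165 against 101 CPM (1.64-fold, 1.53 to 1.75), with log2 ratios of 0.57 and 0.55, under the size for a call, when cells were chosen at equal depth or on Chac1 alone. Slc7a1, a carrier of arginine and lysine, stood at 39.9 against 27.9 CPM, and Slc6a9, a glycine carrier, at 5.72 against 2.82 CPM. All 13 genes of the ATF4-target tRNA synthetases and Xpot, a tRNA exporter, were above 0 as well, with a median of 0.19 and none past 1.5-fold. The 8 other synthetases had a median of 0.06, close to that of all genes.

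Upstream of ATF4, the 12 genes of eIF2 kinases, phosphatase subunits and eIF2B had a median of 0.10. Past 1.5-fold were Eif2ak2, the kinase that senses double-stranded RNA, at 15.5 against 9.19 CPM, and Ppp1r15a, the induced phosphatase subunit of the feedback loop, at 33.5 against 21.8 CPM. Read apart from the choice, the log2 ratio of Eif2ak2 was 0.20 and that of Ppp1r15a 0.65. Among cells with 12000 to 30000 UMIs they were 0.76 and 0.50. Each call held in the setting where the other was lost. Neither held when cells were chosen at 5000 UMIs each, where both stood at 0.47. ER chaperones had a median of 0.08 with 0 of 23 past 1.5-fold, and Hspa5, the main ER chaperone, stood at 71.99 against 75.01 CPM. Heat shock genes had a median of -0.07, NRF2 targets 0.00 and glutathione genes other than Chac1 -0.02, also with none past 1.5-fold.

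**Figure D3:**
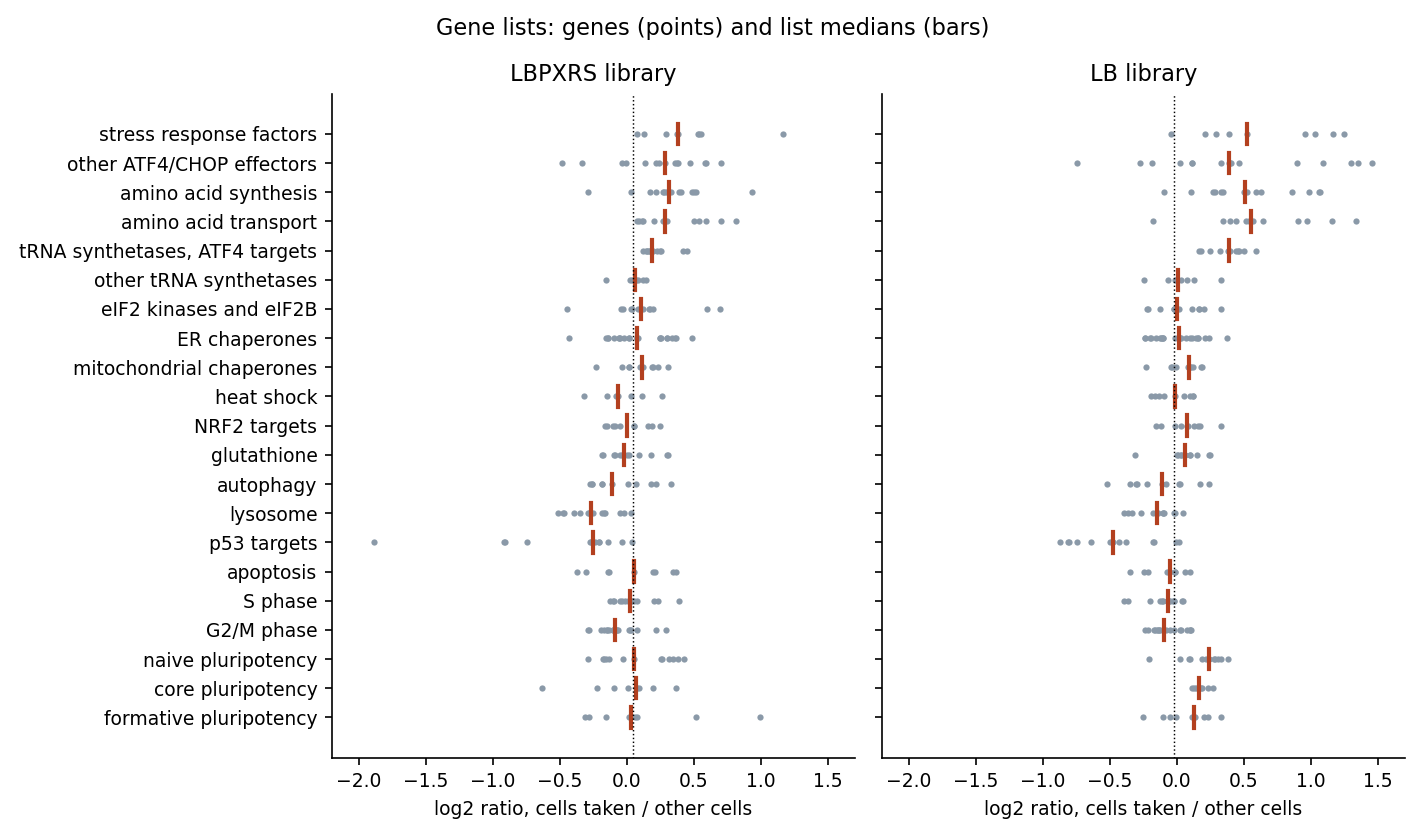
Log2 ratio of CPM between the cells taken and the other cells for the genes (points) of 21 lists, with the list median (red bar) and the median of all genes with at least 1 CPM (dotted line), in each library. The medians of the upper 5 lists lie to the right of that line, and those of the p53 and lysosome lists to its left. The core and naive pluripotency medians in LB change sign when cells are chosen at equal depth.

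Along the score some stress genes were highest in the last group and others were not. The 2435 cells were put into 10 groups by score, where the first 3 groups hold cells at 0 only and the fourth 153 of them. Cells at 0 were in the order of the file, so the first group is an arbitrary part of them. From the first to the last group Atf4 went from 158 to 353 CPM, Gpt2 from 15.03 to 54.5 CPM, Cebpb from 51.1 to 122 CPM and Slc1a5 from 86.3 to 172 CPM. Ddit3 stood at 102 CPM (92.5 to 112) in the first group, 171 CPM in group 7, its highest, and 131 CPM (120 to 141) in the last. Nupr1 went from 368 to 530 CPM in group 7 and 488 CPM in the last group. Asns ranged from 257 to 320 CPM. Over single cells, the Spearman correlation with the score was 0.40 for Atf4, 0.23 for Ddit3 and for Nupr1, 0.22 for Cebpb and 0.09 for Asns (n = 2435).

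**Figure D4:**
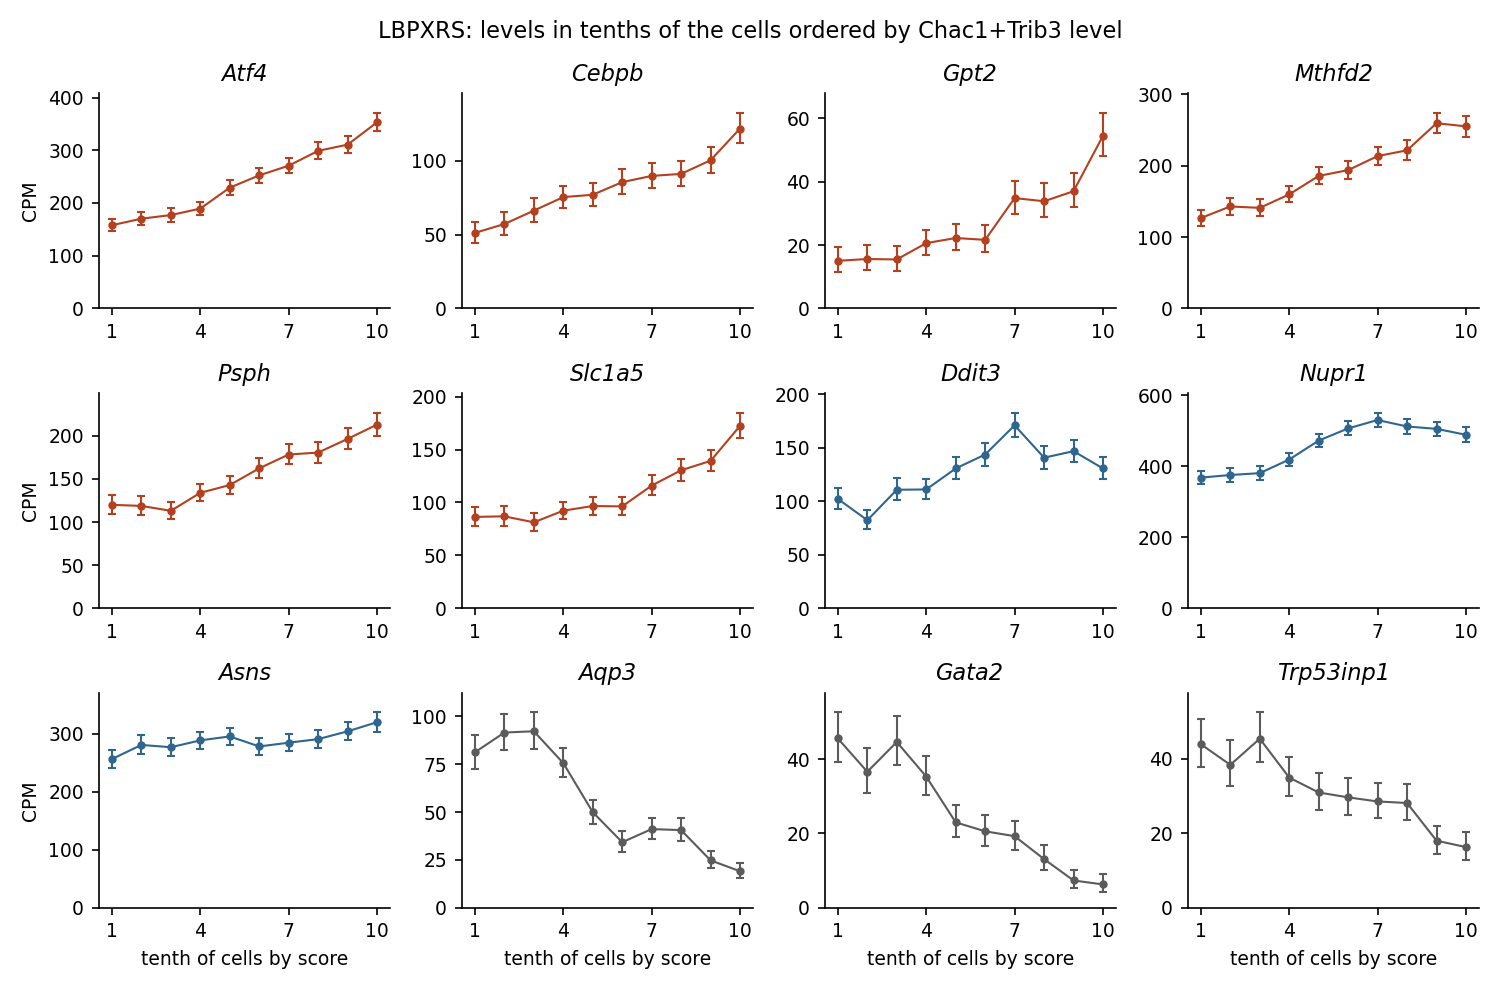
CPM of 12 genes in 10 groups of LBPXRS cells ordered by Chac1+Trib3 level, with exact 95% counting intervals. The order within groups 1 to 3, all at 0, is that of the file. Atf4, Cebpb, Gpt2, Mthfd2, Psph and Slc1a5 climb across the groups, Ddit3 and Nupr1 peak in group 7, and Aqp3, Gata2 and Trp53inp1 decline.

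Among genes with at least 20 CPM in either group, Gata2 and Aqp3 had the lowest ratios. Gata2, a transcription factor of trophoblast and blood lineages, stood at 6.00 against 27.7 CPM (0.22-fold, 0.16 to 0.29), and Aqp3, a water and glycerol channel, at 18.0 against 59.9 CPM (0.30-fold, 0.25 to 0.36). S100a13, a calcium-binding protein, stood at 28.3 against 90.5 CPM and Gadd45g, a growth arrest gene, at 10.9 against 26.7 CPM. The others of the 8 lowest were S100a1, Ahnak2, AA467197 and E330020D12Rik, with log2 ratios of -1.06, -1.04, -0.97 and -0.95. Chosen at 5000 UMIs each, Gata2 and Aqp3 stood at -1.51 and -1.08 on the log2 scale, and read apart from the choice at -1.31 and -1.36. At 5000 UMIs S100a13 went from -1.64 to -0.92, Gadd45g from -1.22 to -0.57, Ahnak2 to -0.56 and AA467197 to -0.50. These last 3 were not called at that setting. Gata2 and Aqp3 were uneven over cells, with a variance 5.56 and 6.45 times that of Poisson counts, against 1.72 for Chac1. Of the 15% of cells highest in Gata2+Aqp3, a set defined after the values were seen, 14 were among the chosen cells (3.84% of these) and 351 among the others (17.0%). Without that set 25 genes were called higher, and the log2 ratios of Gata2 and Aqp3, -2.04 and -1.68 over all cells, were -0.93 and -0.76. Since the set was taken by these same genes, their smaller ratios follow largely from its removal and are a description. Of 6 measured trophoblast genes 5 were below 0, with a median of -0.22, and Gata2 was past 1.5-fold lower. That median was 0.04 when cells were chosen at 5000 UMIs each, and Cdx2 and Hand1 were at or near 0 in both groups.

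Some p53 targets were lower. The list summed to 0.93-fold (0.91 to 0.95), and of 12 measured members 4 were past 1.5-fold lower and 1 was above 0, with a median log2 ratio of -0.25. Trp53inp1, which promotes p53-dependent cell death and autophagy, stood at 17.2 against 33.3 CPM, and Perp, a membrane protein of p53-dependent death, at 6.56 against 11.7 CPM. Of the 4, Pmaip1 met the minimum of 1 CPM only through the other cells, at 0.56 against 4.76 CPM, so its place in the count was fixed by that minimum and supports nothing. Read apart from the choice, Trp53inp1 and Perp stood at -0.28 and -0.29 on the log2 scale, under the size for a call, while the list median was -0.20. Cdkn1a, the cell cycle inhibitor p21, stood at 111 against 135 CPM. The 14 lysosome genes had a median of -0.27 with 13 below 0 and none past 1.5-fold, which became -0.10 without the cells highest in Gata2+Aqp3.

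Pluripotency genes were mostly under the size for a call. Of the naive genes 6 of 13 were below 0 and of the core genes 3 of 9. Past 1.5-fold were Dppa2, lower at 1.67 against 3.15 CPM, and Etv4, a factor of the formative list, higher at 8.51 against 3.78 CPM. The following were not called. Sox2 stood at 291 against 225 CPM, Klf4 at 267 against 205 CPM, Dppa3 at 32.9 against 40.5 CPM and Otx2, a factor of the formative state, at 52.3 against 36.2 CPM, while the naive, core and formative lists had medians of 0.06, 0.07 and 0.03. The naive median was 0.26 with the mean of each cell's CPM in place of summed UMIs, and -0.02 when 20% of cells were taken. Olig2, a neural progenitor factor that served as a marker of these cells, stood at 48.3 against 29.6 CPM (1.63-fold, 1.44 to 1.84) and Tubb3, a neuronal tubulin, at 15.1 against 7.76 CPM. Of 19 neural genes 9 reached 1 CPM, of which 5 were above 0 and 4 below, with 2 past 1.5-fold higher and 1 lower, and Pax6 and Neurog1 were at or below 0.20 CPM in both groups. The log2 ratio of Olig2 was 0.69, also when cells were chosen at 5000 UMIs each. It was 0.50 when read apart from the choice and 0.54 without the cells highest in Gata2+Aqp3, both under the size for a call. In LB, Olig2 had 1 UMI in the 1605 cells left after the keratin step. The median of the neural list, 0.26, turned to -0.04 with no minimum level. The remaining genes among the 12 with the highest ratio at 20 CPM or more were Id1, a BMP target, at 29.0 against 15.6 CPM, Ifrd1, a transcriptional regulator, at 87.8 against 50.4 CPM, Mid1ip1, a regulator of fatty acid synthesis, at 43.8 against 26.3 CPM, and Mycn, a transcription factor of the Myc family, at 123 against 78.4 CPM, with Zbtb45, Pard6a, Dmtn, Nfkbil1 and Lck. When cells were chosen at 5000 UMIs each, none of these 9 genes was called: their log2 ratios ran from 0.28 for Pard6a to 0.55 for Mid1ip1, with Id1 at 0.31 and Mycn at 0.51. S phase and G2/M genes had medians of 0.03 and -0.09.

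The same rule in the LB library took 241 of 1783 kept cells, at a lower level: the lowest of them stood at 61.7017 CPM. Chac1 stood at 50.3 against 2.49 CPM there and Trib3 at 72.1 against 7.45 CPM, together 12.3-fold (10.8 to 14.0), or 4.17-fold (3.53 to 4.93) when read apart from the choice. Of 7118 LB genes 28 were called higher (0.393%) and 97 lower (1.36%), which turned to 45 higher and 13 lower when cells were chosen at 5000 UMIs each. That choice rested on few rule UMIs, since the chosen LB cells held a median of 3 before thinning. Ties followed the order of the file, so some cells were taken arbitrarily, and the part of depth in these shifts was not tested. Stress response genes had a median of 0.44, with 21 of 64 past 1.5-fold higher and 1 lower, where 1.34% of all LB genes with at least 1 CPM were higher and 3.52% lower. Herpud1, Nupr1, Atf4, Slc7a1, Stc2, Pck2, Mthfd2 and Ddit3 were the 8 LB genes with the largest ratios at 20 CPM or more. Of 13 p53 targets in LB 5 were past 1.5-fold lower, with a median of -0.47, but the median was -0.081 when cells were chosen at 5000 UMIs each. Of 10 mesoderm and 10 trophoblast markers, 2 and 1 were past 1.5-fold lower in the chosen LB cells. All 10 of each list were below 0, with medians of -0.40 and -0.36, where 46.3% of all LB genes were above 0, and their part in the LB ratios was not tested. At 5000 UMIs those medians were -0.011 and -0.055, and the mesoderm median was -1.03 when cells were chosen on Trib3 alone. Whether the ratios of the libraries differ was not tested.

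Between libraries, 5 genes were higher in both (Arl14ep, G0s2, Gpt2, Slc1a5 and Stc2), which is 11.9% of the LBPXRS and 17.9% of the LB calls. Of all genes compared, 0.393% were called higher in LB and 0.602% in LBPXRS. G0s2 in both libraries and Stc2 in LBPXRS met the minimum of 10 CPM only through the chosen cells, so there they could not be called lower. Not all of these calls held: at 5000 UMIs each, Slc1a5, Gpt2 and Arl14ep stood at 0.29, 0.54 and 0.59 in LB, and at 0.57, 0.77 and 0.43 in LBPXRS, where Stc2 stood at 0.28. Lower in both were 10 genes, 15.9% and 10.3% of the calls, including Btg2, Dusp4, Perp, Plk2, S100a13 and Trp53inp1. Of all genes compared, 0.903% were called lower in LBPXRS and 1.36% in LB. Some met the minimum of 10 CPM only through the other cells: Plk2 and Inka1 in both libraries, Dusp4 and Perp in LBPXRS, S100a13 and Abhd4 in LB. There they could not be called higher, so those calls are no support for a shared change. At 5000 UMIs each, Perp, Trp53inp1 and S100a13 stood at -0.10, -0.30 and -0.40 in LB, and Perp and Trp53inp1 at -0.41 and -0.37 in LBPXRS, under the size for a call.

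For some genes of the pathway the chosen LBPXRS cells were not set far apart from the others, although Ddit3 and Nupr1 were higher in the last score group than in the first. Ddit3 stood at 127 CPM in the other LBPXRS cells and at 26.3 CPM in the chosen LB cells, Nupr1 at 453 and 71.8 CPM, and Asns at 283 and 122 CPM. For these genes the unchosen LBPXRS cells were above the chosen LB cells. The same held for Slc1a5, at 101 and 28.8 CPM, for Psph, and for the 65 stress response genes summed, at 5879 and 4935 CPM. Atf4, at 227 and 265 CPM in the same groups, went the other way, as did Gpt2 and Mthfd2. Within LBPXRS, Atf4 and Gpt2 were higher in the chosen cells by 1.47-fold and 1.94-fold, while Ddit3, Nupr1 and Asns were higher by 1.06-fold, 1.09-fold and 1.13-fold.

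**Figure D5:**
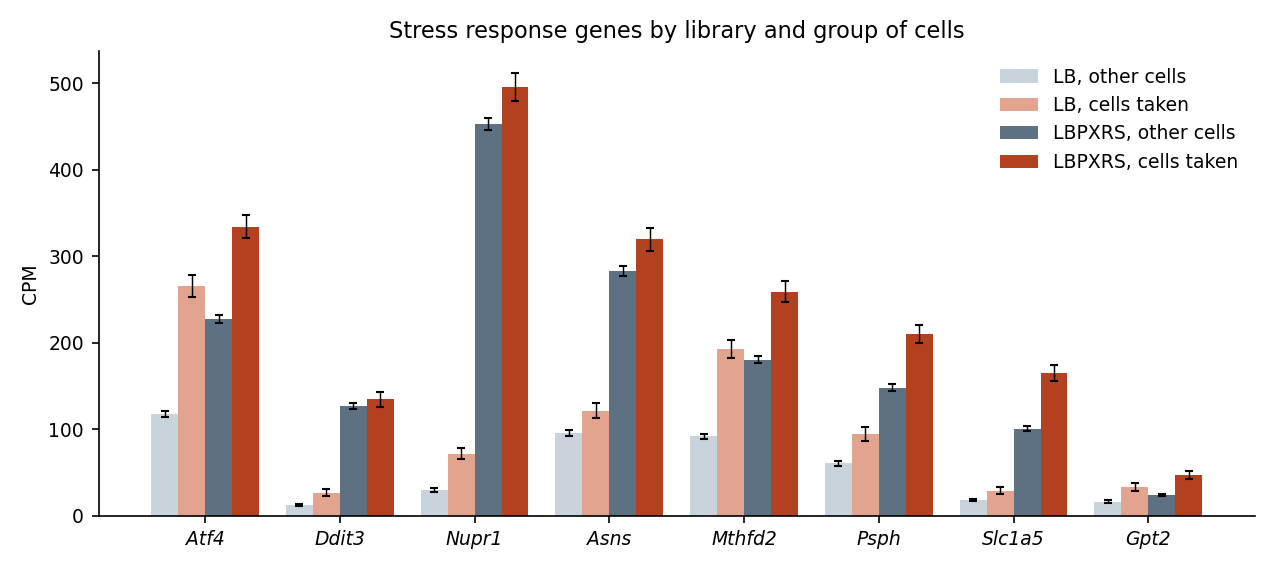
CPM of 8 stress response genes in the cells taken and the other cells of each library, with exact 95% counting intervals. Ddit3, Nupr1, Asns, Psph and Slc1a5 separate the libraries more than the groups of cells. Gpt2 in the cells taken stands at 46.7 CPM in LBPXRS and 33.1 CPM in LB, against 24.1 and 16.2 CPM in the other cells.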

How the data were processed

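Droplet single-cell RNA sequencing of 2 libraries was deposited as UMI counts per gene and cell barcode, which per the file headers the authors made using Cell Ranger 4.0.0, on mm10 per the submitters' processing notes. The annotation release and the cell-calling settings are not given in the sources used here. LBPXRS held 3111 barcodes and 52560769 UMIs, LB 2008 and 46230530, and 10 barcodes occurred in both. Scrublet in scanpy 1.11.5 marked 10 LBPXRS and 18 LB cells as doublets, which were kept, and unmarked doublets may remain. Counts were summed over cells and scaled to CPM, ratios used a pseudocount of 1, and intervals are exact Poisson or binomial at 95%, covering counting error only. TMM factors came from edgeR 4.0.16, with no test. List members needed 1 CPM in either group. Genes named in LBPXRS are the 12 with the highest ratio and the 8 with the lowest (at least 20 CPM in either group), Gpt2, Olig2 and list members. The rule, the members and the 34 gene lists were chosen with earlier results of these data known. The size rule was tested on simulated data. Promoters came from RefSeq on GRCm38.p6.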

Additional observations from a re-analysis of the deposited data

How the results depend on the processing

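Each setting was changed one at a time. The stress response median kept its sign under every setting run, from 0.21 to 0.34 in LBPXRS and from 0.25 to 0.54 in LB, and the p53 median stayed negative, from -0.31 to -0.18 in LBPXRS and from -0.52 to -0.081 in LB, the last when cells were chosen at 5000 UMIs each. At 5000 UMIs the LB medians of naive and core pluripotency genes reversed, from 0.24 to -0.018 and from 0.16 to -0.12, so no direction is read from them. That choice took 48.2% of the 365 LBPXRS cells again. The cause of these shifts was not tested.

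Counts of genes past 1.5-fold depended on the settings. In LBPXRS the 42 higher genes became 12 at 5000 UMIs, 18 chosen on Chac1 alone, 24 chosen on Trib3 alone, 75 when read apart from the choice, 23 with TMM and 25 without the cells highest in Gata2+Aqp3, an alternative added after seeing the data. The 63 lower genes became 34 at 5000 UMIs. With no CPM minimum they were 169 and 347. In LB the 28 higher genes became 51 when 10% of cells were taken, 43 without the keratin step, 45 at 5000 UMIs, 46 on Trib3 alone, 63 read apart from the choice, 70 within 12000 to 30000 UMIs and 189 with no minimum. The 97 lower genes became 233 with the dropped cells added to the other cells, 13 at 5000 UMIs, 154 on Trib3 alone, 177 within 12000 to 30000 UMIs and 533 with no minimum. No paired analysis was possible because each condition has 1 library. Before thinning, chosen cells held a median of 5 rule UMIs in LBPXRS and 3 in LB. Few were therefore left per cell at 5000 UMIs, and ties followed the order of the file. The choice at 5000 UMIs left out 84 shallower LBPXRS and 50 LB cells.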
